A study of Mus musculus with 6 samples.

Results

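The 10 genes described here encode the 4 JAK kinases (Jak1, Jak2, Jak3 and Tyk2), 4 members of the SOCS family that restrain them (Cish, Socs1, Socs2 and Socs3) and the PIM kinases Pim1 and Pim2. They were taken by gene symbol from a table of 16588 genes, and all 10 were present and tested. The table gives estimated read counts in 6 RNA-seq libraries of group 2 innate lymphoid cells (ILC2s), tissue-resident lymphocytes that make type 2 cytokines. There were 3 libraries with the genotype Cnr2 KO, which by that label lack the gene for the cannabinoid receptor CB2, and 3 with the genotype C57BL/6. They are called KO-labelled and wild type (WT) libraries here. In both groups, per the labels' protocols, mice had received 0.5 µg of recombinant IL-33 intranasally for 3 days, and lung cells were taken on day 4. Sorted ILC2s of both groups were then cultured for 18 h, per the design text. The labels give no ages, do not say how the Cnr2 allele was made, and do not say whether a library came from 1 animal or a pool. The title of the series speaks of adipose tissue, but lung is the source given for all 6 libraries. The comparison asks how transcripts of this signalling module differ between the genotypes.

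Cytokine receptors of this class have no enzyme of their own and rely on JAK kinases bound to their tails. An engaged receptor brings JAKs together, they phosphorylate the receptor, and STAT proteins dock, are phosphorylated and move to the nucleus. Cish, the Socs genes and the Pim genes are among the targets that STATs switch on. CIS and SOCS proteins then bind the receptor or the JAK and recruit a ubiquitin ligase, whereas PIM kinases promote growth and survival and are controlled mainly through the amount made. In ILC2s, IL-2, IL-7, IL-9 and TSLP act through JAKs, whereas the IL-33 receptor signals through MyD88.

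Total counts were 17867541 to 19399819 in the KO-labelled libraries and 19056174 to 129617689 in WT, with replicate 2 of WT at 6.88 times the average of the others. Cnr2 itself had 147, 139 and 135 counts in the KO-labelled libraries, against 76, 503 and 60 counts in WT libraries. In CPM, the depth-scaled read count with TMM factors, its level was 7.49 ± 0.0627 in the KO-labelled libraries and 3.69 ± 0.449 in WT (SD, n = 3 each). The targeted transcript was thus higher under the KO label (edgeR adjusted p = 2.11e-05), against that label, and every direction below is one between libraries as labelled. Nothing in the labels says that replicates were separate animals or cultures, and the p-values here cover the spread among these 6 libraries alone, which may be technical. The table has a single value per gene, so a deleted part of Cnr2 could not be looked for. The ILC2 markers, all 12 with counts, summed to 11520 to 12440 CPM in the KO-labelled libraries and to 8474 to 9244 CPM in WT. Of these markers, 9 were called higher and 2, Il13 and Areg, lower. Il13 was at 79.8 CPM in KO-labelled libraries and 150.5 CPM in WT, and Areg at 139.6 and 243.4 CPM. Il5, the most abundant of them, was not called, at 5354 CPM in KO-labelled libraries and 5285 CPM in WT. T cell markers summed to 20.8 to 24.5 CPM in the KO-labelled libraries and 8.93 to 10.3 CPM in WT, with Cd4, Cd8a, Cd8b1 and Cd5 not analysed here. That sum was mostly Cd3g in KO-labelled libraries (17.2 CPM, against 4.65 CPM in WT), whereas Trac was lower, at 0.463 CPM in KO-labelled libraries and 1.48 CPM in WT, and Cd28 was not called. Endothelial markers, mostly Pecam1, summed to 39.3 to 40.3 CPM in the KO-labelled libraries and 106.0 to 114.4 CPM in WT. Epithelial markers summed to 45.65 to 51.6 CPM in KO-labelled libraries and 12.6 to 27.1 CPM in WT. Within that list Epcam was higher, at 46.4 CPM in KO-labelled libraries and 10.9 CPM in WT, but Krt18 was lower, at 1.17 CPM in KO-labelled libraries and 3.43 CPM in WT, and Krt8 had 0 counts in all 3 KO-labelled libraries and 164, 247 and 0 counts in WT. Of the other 9 lists, 5 had higher sums without overlap. Eosinophil, basophil and mast cell markers summed to 25.7 to 30.9 CPM in KO-labelled libraries and 9.51 to 11.85 CPM in WT. That sum was mostly Ccr3 (24.2 CPM, against 8.29 CPM in WT), whereas Mcpt8 was lower, at 0.468 CPM in KO-labelled libraries and 1.57 CPM in WT. Dendritic cell markers summed to 20.4 to 25.6 CPM in KO-labelled libraries and 10.9 to 13.5 CPM in WT. This was mostly Xcr1 (23.3 CPM, against 10.3 CPM in WT). In that list Batf3 had 0 counts in the KO-labelled libraries and 17, 123 and 23 in WT, and Zbtb46 was lower at under 1 CPM. B cell markers (Cd79b alone) summed to 25.1 to 26.3 CPM in KO-labelled libraries and 16.1 to 17.2 CPM in WT. Macrophage and erythroid markers reached at most 5.77 CPM in any KO-labelled library and 1.71 CPM in any WT library. ILC3 markers, which include Il22, were lower, at 0.822 to 1.16 CPM in KO-labelled libraries and 4.66 to 4.83 CPM in WT, and the sums of the remaining 3 lists overlapped. The part of these other cell types in the differences below was not tested.

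Of the 10 genes, 5 were higher in the KO-labelled libraries (Jak1, Jak3, Tyk2, Cish and Socs1), 3 were lower (Jak2, Socs3 and Pim2), and Socs2 and Pim1 did not pass the test. Calls are from edgeR's quasi-likelihood test at a Benjamini-Hochberg adjusted p under 0.05 over 12150 genes. The same rule called 66.3% of all tested genes, 33.1% as higher and 33.2% as lower, so a called gene was the usual case in this table and nothing is read from the count of 8. Socs3 and Pim2 were at least 2-fold lower and no member was at least 2-fold higher, against 7.47% and 8.89% of all tested genes, or 16.4% in either direction. In 8 of the 10 genes the 3 values of the groups did not overlap, 5 of them above WT and 3 below, as in 34.1% and 34.8% of all tested genes and 68.9% in either direction. Among these 10 genes, all 3 families held genes that differed from each other. A JAK, a SOCS and a PIM fell, while listed relatives of each rose or did not pass. The third PIM kinase gene, Pim3, is outside the 10 genes and was lower as well (2.28-fold). In bulk RNA, fewer cells of a type and less RNA per cell cannot be told apart.

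**Figure D1:**
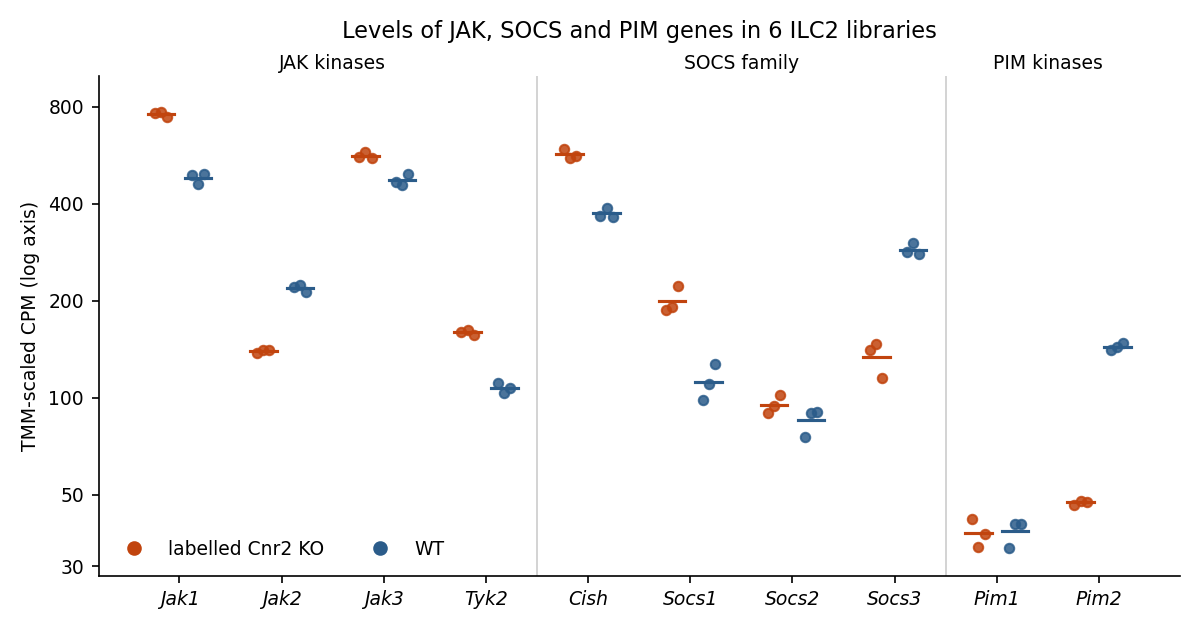
Level of each gene in TMM-scaled CPM on a log axis, with a point for each of the 3 KO-labelled libraries (left) and the 3 WT libraries (right), and a bar for the mean. The groups are apart in 8 of the 10 genes and overlap in Socs2 and Pim1, and the widest gap is that of Pim2, at 46.6 to 47.8 CPM in KO-labelled libraries and 140.5 to 147.7 CPM in WT.

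**Figure D2:**
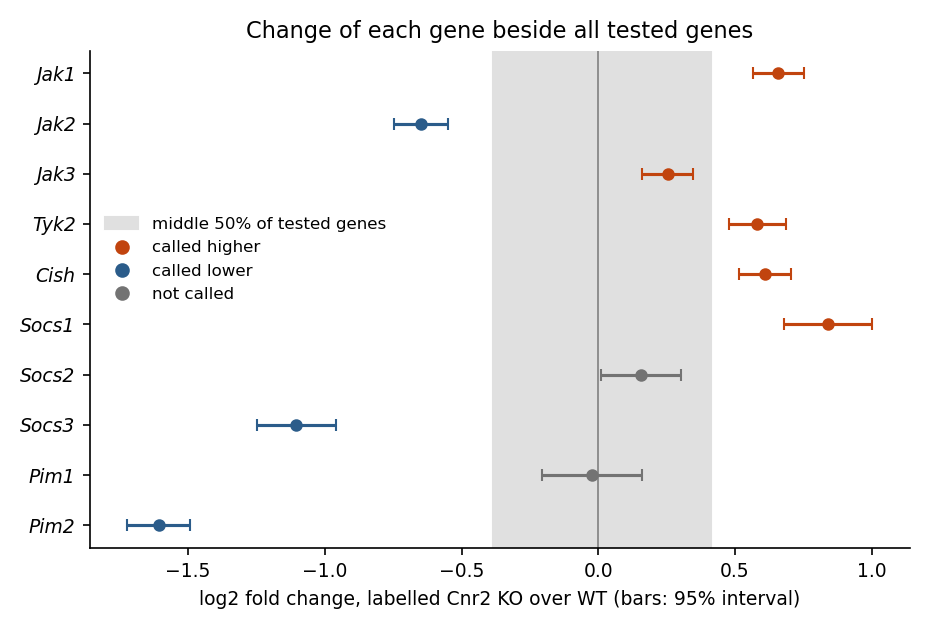
Log2 fold change of each gene, KO-labelled libraries over WT, with its 95% interval from edgeR, and a grey band from -0.38 to 0.41 for the middle 50% of all 12150 tested genes. Of the called genes, Jak3 lies inside the band and the others outside it, and Jak2, Socs3 and Pim2 are on the lower side.

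Among the kinases, Jak2 moved against its relatives. Jak1 (ENSMUSG00000028530.14, chromosome 4, 101152367 to 101265282, GRCm38), which serves nearly every receptor of the common gamma chain, gp130 and interferon families, stood at 768.8, 771.7 and 745.1 CPM in KO-labelled libraries. Its WT values were 491.4, 460.2 and 497.0 CPM. All 3 KO-labelled libraries lay above all 3 WT libraries, a 1.58-fold rise (log2 fold change 0.66, SE 0.04, edgeR adjusted p = 1.64e-10). Jak2 (ENSMUSG00000024789.13, chromosome 19, 29251828 to 29313080), the partner of the shared beta chain of the IL-3, IL-5 and GM-CSF receptors, had 138.0, 140.8 and 141.1 CPM in KO-labelled libraries. In WT it had 221.2, 224.1 and 212.4 CPM. The groups were again apart, here with a 1.57-fold fall (log2 fold change -0.65, SE 0.05, adjusted p = 4.26e-10).

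Jak3 (ENSMUSG00000031805.17, chromosome 8, 71676296 to 71690575), which binds only the common gamma chain, ranged from 555.5 to 578.4 CPM in KO-labelled libraries and from 457.8 to 495.3 CPM in WT. This was the smallest of the called changes among the 10 genes, 1.19-fold (log2 fold change 0.25, SE 0.04, adjusted p = 5.89e-05), and 66.4% of all tested genes had a larger change in either direction. Tyk2 (ENSMUSG00000032175.11, chromosome 9, 21104068 to 21131243), the kinase of IFNAR1, IL-10RB and IL-12RB1, ranged from 157.1 to 161.8 CPM in KO-labelled libraries and from 103.6 to 110.7 CPM in WT, a 1.5-fold rise (log2 fold change 0.58, SE 0.05, adjusted p = 4.65e-09).

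Levels of different genes can be set side by side only per length, here as CPM per kilobase of merged exons in GENCODE. Jak3 and Jak1 were then close in the KO-labelled libraries, at 105.5 and 105.4, whereas in WT Jak3 was above Jak1, at 88.6 and 66.8. Of the summed level of the 4 kinases, Jak1 made up 40.2 ± 0.34% in KO-labelled libraries and 31.1 ± 0.565% in WT (SD, n = 3 each). The share of Jak2 was 10.6 ± 0.226% in KO-labelled libraries and 20.3 ± 1.03% in WT. The share of Jak3 was 40.3 ± 0.291% in KO-labelled libraries and 41.3 ± 0.858% in WT. The gain of Jak1 and the loss of Jak2 thus stood beside a much smaller shift of Jak3. The share of Tyk2 was 8.88 ± 0.0405% in KO-labelled libraries and 7.27 ± 0.19% in WT. With the longest transcript as the length, Jak1 led in KO-labelled libraries (155.3 against 139.5 for Jak3) and Jak3 in WT (117.1 against 98.4 for Jak1), so the order of these kinases within a group depends partly on the length used.

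The SOCS family split in the same way, with Cish and Socs1 higher and Socs3 lower. Cish (ENSMUSG00000032578.7, chromosome 9, 107296026 to 107302784) encodes CIS, which binds phosphorylated receptor tails and is a standard readout of STAT5. It had 591.7, 555.5 and 564.1 CPM in KO-labelled libraries and 367.5, 389.7 and 363.5 CPM in WT. Every KO-labelled library was above every WT library, a 1.53-fold rise (log2 fold change 0.61, SE 0.05, edgeR adjusted p = 7.54e-10). Socs1 (ENSMUSG00000038037.5, chromosome 16, 10782240 to 10785536), which blocks the kinase site of JAKs and is known for restraining interferon and gamma chain signals, had 187.1, 190.8 and 222.7 CPM in KO-labelled libraries. Its WT values were 98.0, 110.6 and 126.8 CPM. The values were more spread than those of Cish, with coefficients of variation of 9.77% in KO-labelled libraries and 12.9% in WT, but still apart, at 1.79-fold higher (log2 fold change 0.84, SE 0.08, adjusted p = 1.31e-08).

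Socs3 (ENSMUSG00000053113.3, chromosome 11, 117966079 to 117970047), the inhibitor of gp130 receptors such as that of IL-6, had 140.2, 147.3 and 114.9 CPM in KO-labelled libraries. In WT it had 284.0, 302.0 and 278.6 CPM. The highest KO-labelled library stood well below the lowest WT library, a 2.15-fold fall (log2 fold change -1.10, SE 0.07, adjusted p = 5.24e-11). Socs2 (ENSMUSG00000020027.18, chromosome 10, 95385362 to 95417180), best known as a brake on growth hormone signalling, had 89.4, 94.0 and 102.1 CPM in KO-labelled libraries and 75.4, 89.6 and 90.1 CPM in WT. The groups overlapped and the call was missed narrowly (log2 fold change 0.16, SE 0.07, 95% interval 0.01 to 0.30, adjusted p = 0.0545). Socs2 was called higher in 8 of 15 other fits. These include the fits without replicate 1 of the KO-labelled libraries (adjusted p = 0.029), without WT replicate 2 (0.0379) and without WT replicate 3 (0.0448). It was not called without replicate 2 (0.0946) or replicate 3 (0.25) of the KO-labelled libraries, or without WT replicate 1 (0.343). Over all 15 fits the adjusted p ranged from 0.0116 to 0.343.

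Per kilobase of merged exons, Socs3 was the most abundant SOCS transcript in WT and Cish in the KO-labelled libraries. Of the summed level of Cish, Socs1, Socs2 and Socs3, Socs3 made up 21.7 ± 2.84% in KO-labelled libraries and 48.6 ± 1.61% in WT. Socs4 to Socs7 were not in this sum. Cish made up 41.5 ± 1.29% in KO-labelled libraries and 28.4 ± 0.8% in WT, and Socs1 32.2 ± 3.04% in KO-labelled libraries and 18.7 ± 2.15% in WT. The sum itself stayed close, at 214.1 ± 1.01 CPM per kb in KO-labelled libraries and 205.2 ± 7.78 CPM per kb in WT. The summed genes thus differed more in their make-up than in their total. Socs2 was the least abundant of the summed genes by this measure, at 4.66 ± 0.307% in KO-labelled libraries and 4.34 ± 0.297% in WT.

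**Figure D3:**
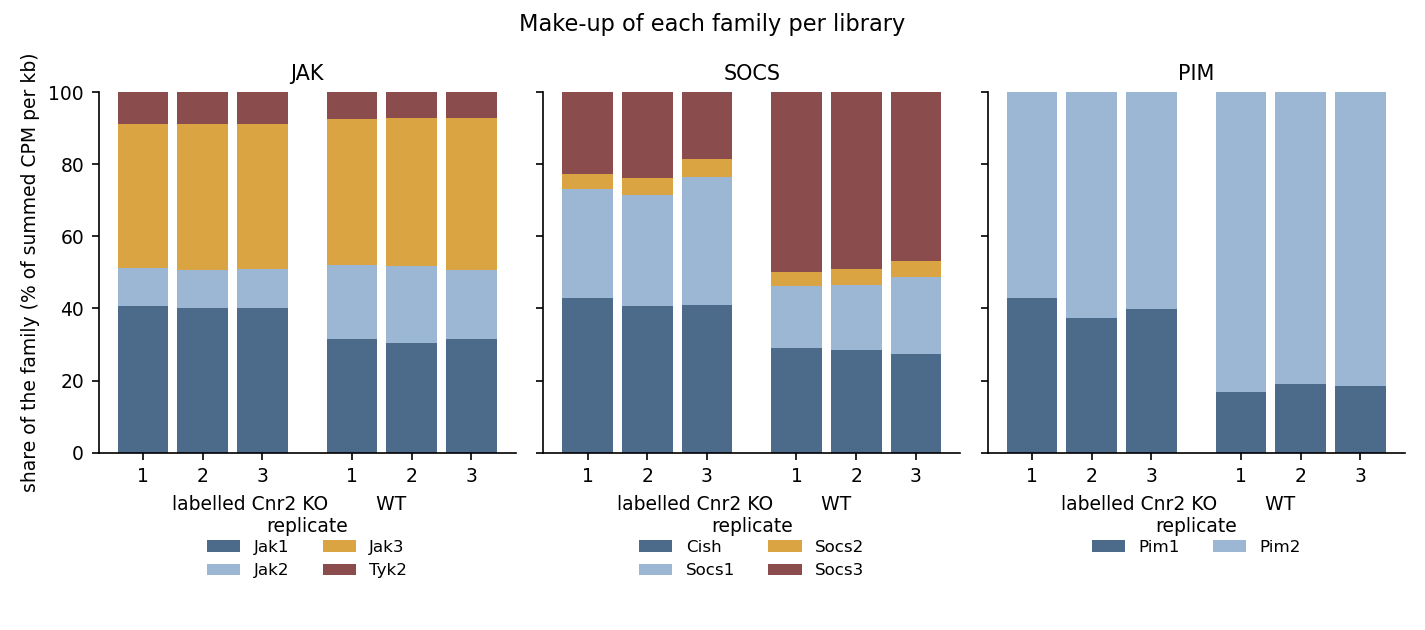
Share of each gene in the summed level of the genes shown of its family, in percent of CPM per kilobase of merged exons. Each panel has 1 bar per library, with the KO-labelled libraries left of WT. Socs3 takes 21.7% of the sum of the SOCS genes shown in KO-labelled libraries and 48.6% in WT. Pim2 takes 60.0% of the sum of Pim1 and Pim2 in KO-labelled libraries and 81.9% in WT, and Pim3 is not in that sum.

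The promoters of Cish, Socs1, Socs3 and Pim2 are shown because these genes carry the split between relatives. Each sequence runs 5′ to 3′ from 250 bases before to 50 bases after a RefSeq start site (GRCm38.p6), and capitals mark matches to the STAT motif TTCNNNGAA, which reads the same on both strands. The windows are chr9:107296409-107296708 (plus strand) for Cish, chr16:10785487-10785786 (minus strand) for Socs1, chr11:117969317-117969616 (minus strand) for Socs3 and chrX:7878056-7878355 (plus strand) for Pim2.
Cish: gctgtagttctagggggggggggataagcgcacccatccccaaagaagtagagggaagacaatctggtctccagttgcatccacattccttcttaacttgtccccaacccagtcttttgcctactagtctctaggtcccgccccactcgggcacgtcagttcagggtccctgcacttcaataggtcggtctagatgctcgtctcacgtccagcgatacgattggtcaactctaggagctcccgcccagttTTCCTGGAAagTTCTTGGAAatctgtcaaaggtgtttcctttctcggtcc
Socs1: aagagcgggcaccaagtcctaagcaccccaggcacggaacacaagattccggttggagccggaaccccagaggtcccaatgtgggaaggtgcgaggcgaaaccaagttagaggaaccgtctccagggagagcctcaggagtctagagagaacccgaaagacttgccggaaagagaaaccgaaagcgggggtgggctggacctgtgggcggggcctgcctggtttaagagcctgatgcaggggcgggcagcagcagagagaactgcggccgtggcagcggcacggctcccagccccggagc
Socs3: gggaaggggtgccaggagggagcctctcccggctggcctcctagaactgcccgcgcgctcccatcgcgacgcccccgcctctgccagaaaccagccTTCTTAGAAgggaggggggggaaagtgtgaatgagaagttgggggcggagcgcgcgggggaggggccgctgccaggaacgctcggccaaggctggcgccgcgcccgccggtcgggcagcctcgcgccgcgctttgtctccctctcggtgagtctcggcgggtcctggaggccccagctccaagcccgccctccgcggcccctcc
Pim2: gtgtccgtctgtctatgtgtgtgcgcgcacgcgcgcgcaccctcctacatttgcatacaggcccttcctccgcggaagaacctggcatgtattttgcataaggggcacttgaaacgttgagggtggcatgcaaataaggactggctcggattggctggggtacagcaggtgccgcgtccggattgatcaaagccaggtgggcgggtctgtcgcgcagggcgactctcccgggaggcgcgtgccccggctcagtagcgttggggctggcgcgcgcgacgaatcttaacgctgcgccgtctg

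Cish held 2 matches, TTCCTGGAA and TTCTTGGAA, starting at bases 1 and 12 of the RefSeq transcript, and Socs3 held 1, TTCTTAGAA, starting at position -154. The start sites used for Cish and Socs3 lie 633 and 681 bases inside the GENCODE gene. RefSeq windows were found for 9 of the 10 genes, with a second window for Pim1, and the other 8 of these 10 windows held no match to this motif or to the STAT motif with a spacer of 4 bases in place of 3. Of all 32851 RefSeq windows of this length, 8.3% held at least 1 match to TTCNNNGAA. At least 1 match to the form with a spacer of 4 was held by 6.95%. A share of 0.457% held 2 or more matches to TTCNNNGAA, as Cish did. In the 11826 windows of tested genes these shares were 6.8%, 5.45% and 0.414%. Among the genes with a window, Cish rose and Socs3 fell, so the genes that share the motif did not move together, and matches are letters in a window and not measured binding.

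Pim2 had the largest change of the 10 genes, whereas Pim1 did not pass the test. Pim2 (ENSMUSG00000031155.16, chromosome X, 7878262 to 7883432), a survival kinase of lymphocytes, had 46.6, 47.8 and 47.5 CPM in KO-labelled libraries and 140.5, 144.2 and 147.7 CPM in WT. The values within each group lay within a few CPM of each other and the groups were far apart, a 3.05-fold fall (log2 fold change -1.61, SE 0.05, edgeR adjusted p = 8.02e-15). Only 7.14% of all tested genes had a larger change in either direction. Pim1 (ENSMUSG00000024014.8, chromosome 17, 29490753 to 29496112), its relative with much the same substrates, had 41.9, 34.3 and 37.7 CPM in KO-labelled libraries and 34.1, 40.6 and 40.5 CPM in WT. The groups overlapped (log2 fold change -0.02, SE 0.09, 95% interval -0.20 to 0.16, adjusted p = 0.829). Pim3, the third PIM kinase, had 60.6 ± 1.99 CPM in KO-labelled libraries and 138.5 ± 5.19 CPM in WT, a 2.28-fold fall (adjusted p = 7.05e-13). Pim2 made up 60.0 ± 2.71% of the summed Pim1 and Pim2 level per kilobase in KO-labelled libraries and 81.9 ± 1.16% in WT.

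Ratios of relatives within a library, which no scaling between libraries can change, were compared for 6 pairs. The Socs3 to Socs1 ratio of counts was 0.516 to 0.772 in KO-labelled libraries and 2.2 to 2.9 in WT, a shift of -1.95 in the mean log2 ratio. The Pim2 to Pim1 ratio was 1.11 to 1.39 in KO-labelled libraries and 3.55 to 4.12 in WT, a shift of -1.59. The Jak2 to Jak1 ratio was 0.179 to 0.189 in KO-labelled libraries and 0.427 to 0.487 in WT, a shift of -1.31. The Jak3 to Jak1 ratio shifted by -0.40, the Cish to Socs2 ratio by 0.45 and the Tyk2 to Jak1 ratio by -0.08, which was 1.06-fold. In all 6 pairs the groups did not overlap. The two-sided exact permutation test gave p = 0.1 for each, the smallest that 3 against 3 libraries allow, and 0.1 after Benjamini-Hochberg adjustment over the 6 pairs. The share of other gene pairs that do not overlap was not computed. Taken singly, 68.9% of all tested genes did not overlap, so nothing is read from all 6 pairs being apart.

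**Figure D4:**
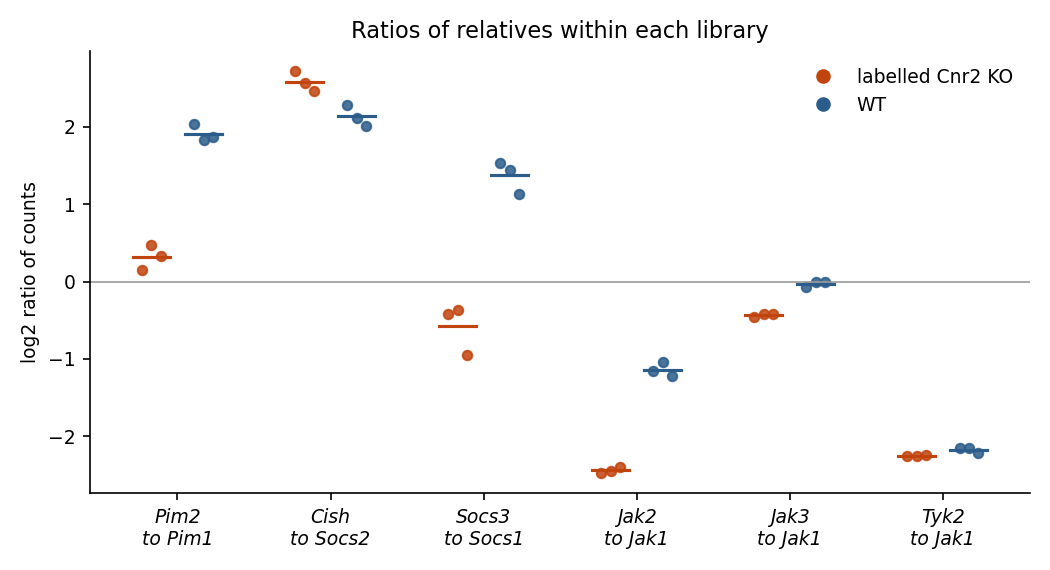
Log2 ratio of the counts of 2 relatives within each library, with the 3 KO-labelled libraries left and the 3 WT libraries right of each label, and a bar for the mean. Socs3 to Socs1 is below 0 in every KO-labelled library and above 0 in every WT library, and Tyk2 to Jak1 shows the smallest shift, -0.08.

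The overlap of some of these genes with neighbours limits their counts, since whether reads were counted by strand is not known here. Jak3 shares 404 exon bases with Insl3 on the same strand, and Tyk2, Cish and Pim1 share 479 to 554 exon bases with antisense genes, and Cish another 261 with an antisense pseudogene. Of these neighbours, the Cish pseudogene Gm17040 averaged 0.618 CPM in KO-labelled libraries and 0.781 CPM in WT, and the Pim1 antisense gene Gm26885 averaged 1.29 CPM in KO-labelled libraries and 0.928 CPM in WT. Insl3 and the antisense genes of Tyk2 and Cish were not analysed here. Jak1 shares 4 exon bases with Raver2, and Jak2, Socs1, Socs2, Socs3 and Pim2 overlap no annotated gene.

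Around the 10 genes, 89 further genes of 7 JAK-STAT lists were tested, of which 34 were higher, 37 were lower and 18 did not pass in the KO-labelled libraries. Of all tested genes, 33.1% were higher and 33.2% lower, the shares to set beside the count of each list. The median log2 fold change of the 89 genes was 0.01, against 0.01 over all tested genes, so these lists together showed no common direction. Of the receptor chains, 13 of 22 tested genes were higher and 6 lower, and the median log2 fold change was 0.37. Csf2rb, the beta chain used by Jak2, had 108.4 ± 30.6 CPM in KO-labelled libraries and 24.1 ± 2.69 CPM in WT. Its relative Csf2rb2, which binds IL-3 alone, had 27.8 ± 7.92 CPM in KO-labelled libraries and 6.93 ± 0.752 CPM in WT, and reads of these near-identical genes may be split between them. Csf2rb was 4.44-fold and Csf2rb2 3.93-fold higher, with replicate 3 of the KO-labelled libraries highest for both, so Jak2 fell where its receptor chain rose. Ifngr1, a Jak1-binding chain of the interferon gamma receptor, was 2.14-fold higher, at 203.2 ± 5.21 CPM in KO-labelled libraries and 94.4 ± 9.43 CPM in WT. Il9r, the partner of the gamma chain for IL-9, was 4.28-fold higher. The 8 listed chains of receptors that hold the common gamma chain, grouped after their values were seen, moved both ways. Il2ra (2.03-fold), Il2rb (1.29-fold), Il4ra (1.35-fold) and Il2rg, the common gamma chain itself (1.07-fold, edgeR adjusted p = 0.0411), were lower. Il9r, Il7r (1.32-fold), Il15ra (1.37-fold) and Il21r (1.54-fold, edgeR adjusted p = 0.0119) were higher. The call for Il2rg was not stable, with log2 fold changes of -0.13 to 0.03 and adjusted p up to 0.548 over 15 other fits.

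Of the 7 STAT genes, 3 were higher and 2 lower, and the median log2 fold change was 0.06. Stat5b, at 165.8 ± 4.84 CPM in KO-labelled libraries and 185.7 ± 4.01 CPM in WT, was 1.12-fold lower (adjusted p = 0.00526), and Stat5a, at 66.1 ± 2.58 CPM in KO-labelled libraries and 130.5 ± 7.32 CPM in WT, was 1.97-fold lower. Stat2, which carries the type I interferon signal with Tyk2 upstream, was 2.44-fold higher, and Stat4, the IL-12 factor, 5.29-fold higher. Cish thus rose while both STAT5 transcripts fell, and whether the STAT5 protein or its phosphorylation differed was not measured. Of 15 tested genes known as STAT5 targets, 6 rose and 6 fell, and their median was 0.04. Gadd45b, a stress-response gene (9.53-fold), Myc (3.54-fold), Tnfrsf4, the costimulatory receptor OX40 (2.12-fold), and Il2ra (2.03-fold) were lower. Tnfrsf18, the costimulatory receptor GITR, named after its values were seen, was higher by as much as Il2ra was lower (2.03-fold), at 413.8 ± 11.2 CPM in KO-labelled libraries and 203.3 ± 13.5 CPM in WT.

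Brakes other than the 4 SOCS members also moved both ways, with 8 of 17 higher, 4 lower and a median of 0.18. Usp18, which blocks the type I interferon receptor and is induced by it, had 17.1 ± 2.09 CPM in KO-labelled libraries and 2.44 ± 0.809 CPM in WT, a 6.3-fold rise. Sh2b3, the adaptor LNK that binds JAK2, was 4.61-fold higher, at 46.0 ± 3.32 CPM in KO-labelled libraries and 10.3 ± 1.28 CPM in WT. Pias3, an inhibitor of STAT3, was 2.54-fold higher. Ptpn2, a phosphatase of JAK1, JAK3 and STAT5, was 2.47-fold lower, at 89.0 ± 3.26 CPM in KO-labelled libraries and 218.8 ± 20.5 CPM in WT. Of 8 tested genes for the ubiquitin ligase that the SOCS box recruits, 7 were lower and 1, Elob, was higher, with a median of -0.32. Rnf7, the RING subunit, was 1.56-fold lower, the scaffold Cul5 1.41-fold, the adaptor elongin C (Eloc) 1.32-fold and the scaffold Cul2 1.27-fold. Elob overlapped between groups and lost its call without replicate 3 of the KO-labelled libraries and without WT replicate 2.

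Of the list of Pim3 and PIM substrates, 7 of 12 tested genes were lower and 2 higher, with a median of -0.28. Eif4b, a translation factor that PIM kinases phosphorylate, had 232.8 ± 5.91 CPM in KO-labelled libraries and 418.5 ± 10.7 CPM in WT, a 1.8-fold fall. Myc, whose protein PIM kinases stabilise, had 91.3 ± 3.37 CPM in KO-labelled libraries and 323.4 ± 24.5 CPM in WT. Cdkn1b, the cell cycle inhibitor p27, was 2.09-fold higher at a low level, 6.9 ± 1.1 CPM in KO-labelled libraries and 3.21 ± 0.493 CPM in WT.

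Most tested cytokines that signal through JAKs were lower in the KO-labelled libraries. Of 11 genes, 8 were lower and 1 higher, against 33.2% and 33.1% of all tested genes. The 8 include Il21 and Il22, which had 0 counts in the KO-labelled libraries and entered the test through WT alone. With a filter at 5 CPM in 3 libraries, 6 of 9 genes were lower and 1 was higher. The median log2 fold change of the 11 genes was -2.94, with Il21 and Il22 counted. Setting Il21 and Il22 to the bounds given below could not move it, since both bounds lie further down. Il5, the most abundant, did not pass, at 5354 CPM in KO-labelled libraries and 5285 CPM in WT (edgeR adjusted p = 0.771), and neither did Il4 (0.365). Il2, Il3, Il15, Tslp, Ifng and Ifnb1 were not analysed here. The gene that was higher, Csf2, named after its values were seen, encodes GM-CSF, a ligand of receptors with the Csf2rb chain, and had 52.3 ± 2.4 CPM in KO-labelled libraries and 16.1 ± 1.69 CPM in WT (3.31-fold, edgeR adjusted p = 1.85e-12). Lif and Il6, whose gp130 receptors SOCS3 restrains, were lower along with Socs3, and a link between them was not tested. The receptor chain Il6ra had 0 counts in the 3 KO-labelled libraries and 4, 25 and 0 counts in WT, and Lifr was not analysed here. Il6st, the gene of gp130, was at 18.3 CPM in KO-labelled libraries and 14.5 CPM in WT. It was called higher (1.27-fold, edgeR adjusted p = 0.0178) although its groups overlapped. Its call was not stable, with adjusted p up to 0.167 over 15 other fits. Lif was at 8.54 ± 0.821 CPM in KO-labelled libraries and 97.3 ± 7.68 CPM in WT. Il6 was at 3.23 ± 0.5 CPM in KO-labelled libraries and 24.8 ± 1.94 CPM in WT. Il10, whose receptor uses Jak1 and Tyk2, was at 8.54 ± 1.95 CPM in KO-labelled libraries and 84.2 ± 11.04 CPM in WT. Il9 was at 0.79 ± 1.14 CPM in KO-labelled libraries and 94.1 ± 9.23 CPM in WT, 122.0-fold lower, and 699.8-fold lower without replicate 3 of the KO-labelled libraries. Il21 and Il22, named after their values were seen, had 0 counts in the 3 KO-labelled libraries and 420 and 262 counts in WT. With 3 counts over the group set as the limit for a 0, Il21 was at least 47.1-fold lower and Il22 at least 26.2-fold lower. Among the list genes named by the rule, the highest edgeR adjusted p was that of Stat5b.

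**Figure D5:**
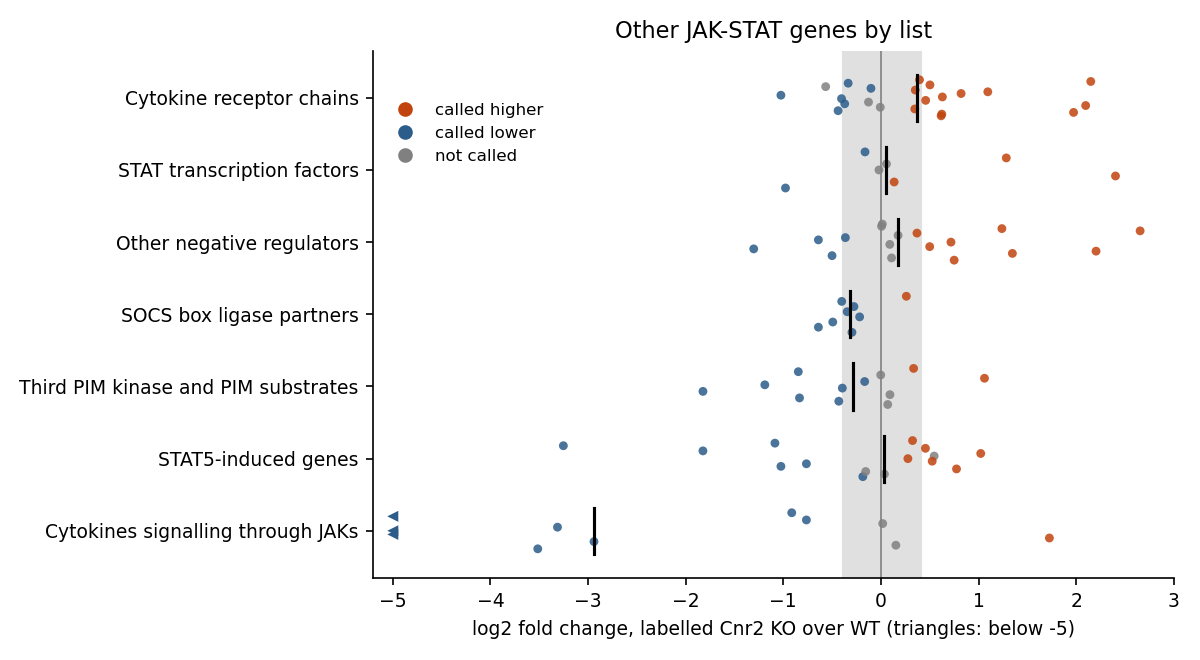
Log2 fold change of each tested gene of 7 JAK-STAT lists, KO-labelled libraries over WT, with the list median as a black bar and the middle 50% of all tested genes as a grey band. Cytokines lie furthest to the lower side, with a median of -2.94 and triangles for Il9, Il21 and Il22. Il21 and Il22 had 0 counts in the KO-labelled libraries. The receptor chains have the highest median, 0.37.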

How the data were processed

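RNA came from cultured lung ILC2s, made into libraries with a SMARTer low-input kit per the labels' protocols. The authors deposited estimated counts per gene in 1 table, not whole numbers in all cells. The submitters' processing notes name Partek 10.0, STAR 2.7.8, DESeq2 and mm10. How reads were counted, and whether by strand, is not given in the sources used here. Groups came from the genotype labels.

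Counts were rounded to whole numbers and tested with edgeR 4.0.16 (R 4.3.3, TMM factors, default low-count filter, quasi-likelihood test, Benjamini-Hochberg over 12150 of 16588 genes). limma 3.58.1 and DESeq2 1.42.0 served as alternatives. Fold changes are KO-labelled over WT, and SE is taken from the F statistic. On simulated data with 11996 genes tested, the fit recovered 76% of genes changed 1.25-fold and 98% of those changed 1.5-fold. Of the simulated calls, 5.08% fell on unchanged genes. Only 50 genes of at least 5 CPM were changed at each size, whereas 66.3% of tested genes were called here, so these rates need not hold for these data. Exon lengths are from GENCODE M21, and promoter windows from RefSeq.

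Members and gene lists were chosen with earlier results of these data known. All 10 members were named. From each list the called genes with the largest changes and a mean of at least 5 CPM were named, up to 4 a list, with Stat5a, Stat5b and Cnr2 always.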

Additional observations from a re-analysis of the deposited data

How the results depend on the processing

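Of the 10 genes, 8 kept their call and direction in all 15 other fits (other scalings and filters, a replicate block, each library left out, WT replicate 2 thinned, DESeq2, limma-voom, and a GC and length offset chosen after seeing the data), with adjusted p at most 0.000985. Socs2 is the exception given in the report. Pim1, never called, had log2 fold changes of -0.1029 to 0.0461 with a library left out and 0.0010 with the GC and length offset, against -0.02. Requiring at least 1.5-fold left 3 members higher in KO-labelled libraries instead of 5, since Jak3 and Tyk2 are under that size. It left 20 list genes higher and 19 lower instead of 34 and 37, and 2055 and 1906 of all tested genes instead of 4019 and 4034. With the replicate number as a block, 6 members were higher and 3 lower, as were 35 and 37 list genes and 4061 and 4113 of all tested genes. Deviations of same-numbered libraries correlated at 0.111, 0.023 and 0.0817 over 9366 genes, so the numbers were not taken as pairing. Each library correlated best with its own number, which is a hint from the data only. Within-library ratios had the same sign in every alternative run. The lowest count of a member in any library was 643, for Pim1.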

Other observations

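The SOCS genes outside the 4 described above, named after their values were seen, held 1 called higher, 1 called lower and 2 that did not pass the test. Socs5 was 1.68-fold higher, at 5.97 CPM in KO-labelled libraries and 3.61 CPM in WT (edgeR adjusted p = 0.00254). Socs7 was lower, at 7.26 CPM in KO-labelled libraries and 10.4 CPM in WT (edgeR adjusted p = 0.013), and lost its call without replicate 1 of the KO-labelled libraries and without WT replicate 3, with adjusted p up to 0.0831 over the other fits. Socs4 (adjusted p = 0.338) and Socs6 (adjusted p = 0.945) were not called.

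The genes whose log2 level was most like that of Pim2 over the 6 libraries were Mycl, Nfkbia and Ntmt1, with Pearson r of 0.9998, 0.9998 and 0.9997. The libraries form 2 groups that differ for most genes, and 22.7% of the 9365 genes compared had r over 0.95, so the likeness is a description of the split between the groups. Nfkbia, the NF-kappaB inhibitor, was at 67.0 CPM in KO-labelled libraries and 454.6 CPM in WT.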
